A study of Mus musculus with 81 samples.

Results

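The kinetochore and spindle checkpoint genes described here are a list of 38 genes, taken by symbol, out of 51826 genes in the deposited count table. All 38 were found and all 38 passed the filter on low counts; the lowest count of any of them in any mouse was 41, for Cenpk. The comparison gene was Mki67, which encodes the Ki-67 protein of cycling cells and served as the common proliferation level against which single genes were set. RNA was sequenced from frozen thymic tissue of 40 mice in 81 libraries. All animals were of the strain C57BL/6 x 129S4Sv/Jae, and all of them, the normal thymuses included, carried Plk4(Col1a1), rtTA(Rosa) and centrin-GFP(Rosa). Plk4 encodes the kinase that starts the duplication of centrioles, and rtTA a transactivator that doxycycline switches on. Normal thymus came from 8 untreated p53+/+ mice (8 libraries), untreated p53-/- lymphoma from 10 mice (23 libraries), treated p53-/- lymphoma from 9 mice (18 libraries) and treated p53+/- lymphoma from 12 mice (31 libraries). Doxycycline was given to the treated mice over 2 weeks, beginning at 30 days of age. One untreated p53+/- normal thymus was in no group comparison. The age at which tissue was taken is not given in the sources used here, so age cannot be told apart from tumour tissue in any comparison with normal thymus. Several biopsies of one tumour were summed, so that n counts mice. Where values stand in threes, they follow the order of the lymphoma groups above: untreated p53-/- first, then treated p53-/-, then treated p53+/-.

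The kinetochore is the protein assembly on the centromere that holds the chromosome to spindle microtubules during mitosis. Kinetochores without a proper attachment produce the mitotic checkpoint complex, which holds back the activator Cdc20 of the anaphase-promoting complex, and so keeps securin (Pttg1) bound to separase (Espl1) until all chromosomes are attached. Most of these genes are transcribed late in the cell cycle, and in a normal thymus the dividing cells are mainly immature thymocytes. In bulk tissue, fewer cells of a type and less RNA per cell cannot be told apart.

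Libraries held between 1030429 and 26871781 counts, and mice with their biopsies summed between 5009294 and 98591003. Mouse 387 stood apart among the normal thymuses. Its 11 T-lineage markers summed to 1459.7 CPM (counts per library, brought to the same total in each), against 7124.4 to 10169.2 in the other 7, its 5 B-lineage markers to 1257.5 against 74.1 to 111.5, its 5 fat markers to 9559.8 against 696.7 to 4057.3, and its 6 thymic epithelial markers to 109.4 against 1020.3 to 1792.2. In 3 lymphoma-bearing mice (869, 870 and 328) the sex-linked genes went against the labelled sex. Fat markers were lower in the lymphomas, with sums of 36.5 to 178.1 CPM against 696.7 to 9559.8 in normal thymus, and 5 of 5 fell in each group. Thymic epithelial markers summed to 2.4 to 338.1 CPM, below the 7 normal thymuses other than mouse 387, and 4, 5 and 5 of 6 fell in the 3 lymphoma groups. Of the 5 fibroblast markers 2, 1 and 1 rose and 1, 1 and 1 fell, with median log2 fold changes of 1.27, 0.75 and 0.74 and sums of 107.0 to 2509.8 CPM against 166.8 to 2820.2. Of the 5 myeloid markers 0, 0 and 0 were called, with 0, 0 and 0 also at an unadjusted p under 0.05. Of the 11 T-lineage markers 0, 1 and 1 rose and 3, 1 and 2 fell. The T-lineage sums were 244.1 to 7453.4 CPM in untreated p53-/-, 4440.5 to 9018.0 in the treated p53-/- group and 3440.8 to 7397.7 in the treated p53+/- group. B-lineage markers, with normal sums of 74.1 to 1257.5 CPM, fell in 0, 5 and 5 of 5 cases in the same order, and summed to 2834.1 CPM in the untreated p53-/- lymphoma of mouse 881. That tumour had the lowest T-lineage sum, 244.1 CPM. Its Cd3e was at 1.8 and its Pax5 at 903.2 CPM, both without TMM scaling. These values go against a T-cell tumour, and the counts of members called are given with and without mouse 881. At a count of 0 were Foxn1 in 2, 1 and 4 mice, Psmb11 in 5, 2 and 2, Cidea in 3, 1 and 2, Krt5 in 1 and Ucp1 in 2 treated p53-/- mice, and Rag2 in 1 untreated p53-/- mouse, and no B-lineage marker was. The part of these other cell types in the results below was not tested.

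Many late cell cycle promoters share a short element, the cell cycle genes homology region, and CCAAT boxes. RefSeq promoter windows (build GRCm38.p6, 250 bases before to 50 bases after each start) were found for 33 of the 38 genes, in 38 windows. Aurkb, Incenp, Spc24, Nsl1 and Zwilch were not matched. The upstream part is printed for Cdc20, Espl1 and Kntc1, which were among the 4 genes with the largest rise in lymphoma, and for Pttg1 and Cenpt, which were not called in any comparison. Capitals mark TTTGAA or TTCGAA (the letters of the homology region), CCAAT, and TTCCCGC or TTTGGCGC (letters of E2F sites), on either strand. Each stretch reads 5′ to 3′ on the gene's strand and ends at or before the start, and where more than 30 of its bases lay in an annotated UTR it was shortened to the part outside any UTR. This applied to Pttg1 and Cenpt, while the stretches of Cdc20 and Espl1 hold 9 and 27 annotated UTR bases. Annotated exons of any gene covered 9, 136 and 10 printed bases of Cdc20, Espl1 and Kntc1. They covered 137 of 192 bases of Pttg1 and 108 of 204 of Cenpt. In the gene annotation both of these genes begin upstream of the printed stretch, at 43426251 and 105853278.
Cdc20, chr4:118437344-118437593, minus strand: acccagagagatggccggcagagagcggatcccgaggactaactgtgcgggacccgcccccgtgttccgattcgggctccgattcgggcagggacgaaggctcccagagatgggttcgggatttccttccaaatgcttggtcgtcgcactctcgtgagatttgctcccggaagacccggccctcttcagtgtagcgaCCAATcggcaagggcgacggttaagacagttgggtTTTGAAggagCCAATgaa
Espl1, chr15:102296043-102296292, plus strand: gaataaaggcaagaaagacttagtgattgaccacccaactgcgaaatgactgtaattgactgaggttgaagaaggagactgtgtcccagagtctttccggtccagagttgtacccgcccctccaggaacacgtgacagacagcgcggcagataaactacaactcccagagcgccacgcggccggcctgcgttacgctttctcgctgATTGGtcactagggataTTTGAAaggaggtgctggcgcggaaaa
Kntc1, chr5:123749476-123749725, plus strand: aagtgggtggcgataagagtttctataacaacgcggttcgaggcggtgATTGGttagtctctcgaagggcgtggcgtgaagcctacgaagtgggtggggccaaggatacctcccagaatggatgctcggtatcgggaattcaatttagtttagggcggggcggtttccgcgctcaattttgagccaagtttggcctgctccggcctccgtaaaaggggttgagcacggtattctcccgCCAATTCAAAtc
Pttg1, chr11:43425982-43426173, minus strand: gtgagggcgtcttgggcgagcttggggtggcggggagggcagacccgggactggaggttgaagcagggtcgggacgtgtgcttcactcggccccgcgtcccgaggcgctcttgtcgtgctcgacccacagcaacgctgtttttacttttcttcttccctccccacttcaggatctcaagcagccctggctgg
Cenpt, chr8:105852055-105852258, minus strand: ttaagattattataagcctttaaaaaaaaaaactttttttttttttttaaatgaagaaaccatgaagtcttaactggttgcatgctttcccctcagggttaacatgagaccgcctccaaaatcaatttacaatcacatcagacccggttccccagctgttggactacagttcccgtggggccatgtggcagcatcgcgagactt

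The Cdc20 stretch held 1 TTTGAA and 2 CCAAT, the Espl1 stretch 1 TTTGAA and 1 CCAAT, and the Kntc1 stretch 1 TTTGAA and 2 CCAAT, of which one shares a base with the TTTGAA. None of these letters was found in the Pttg1 and Cenpt stretches, which lie inside the annotated bounds of these genes. The windows of Mad2l1 and Nuf2, which rose in all 3 comparisons, and of Birc5, which rose in 2, also held none, and the window of Mis12, called in 0, held 4 CCAAT, as many as that of Cdca8. Over the whole windows, TTTGAA or TTCGAA was present in 19 of the 38 member windows and in 6316 of all 32851 windows (19.2%). CCAAT was present in 73.7% against 37.4%, and 2 or more CCAAT in 36.8% against 11.7%. The E2F letters were present in 18.4% against 5.1%, and a homology region together with CCAAT in 44.7% against 7.5%. These are counts of letters and not of bound sites.

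Most kinetochore and checkpoint genes were higher in all 3 kinds of lymphoma than in normal thymus. Of the 38, 29, 33 and 34 rose in the 3 lymphoma groups (edgeR quasi-likelihood test, Benjamini-Hochberg adjusted p under 0.05 over 17841 genes), and 0 fell. Over all genes tested, 23.2%, 25.4% and 25.6% rose in the same 3 comparisons. The median log2 fold change of the members was 0.91, 1.29 and 1.22, and that of all genes was 0.08, -0.05 and 0.00. The 3 comparisons share the 8 normal thymuses. Without mouse 881 the counts of risen members were 29, 33 and 34. In all 3 comparisons 28 members rose and in 2 of them 6 rose, whereas Pttg1, Mad1l1, Cenpt and Mis12 were called in 0. How many of all genes rose in all 3 is not given here. The 6 were Birc5, Cenpe, Spc25, Cenpk and Cenpn, not called in untreated p53-/- lymphomas, and Zwint, not called in treated p53-/- lymphomas. Per kilobase of exon, Cdc20 had the highest level of the 38 in every group, with a geometric mean of 29.6 CPM per kb in normal thymus and 123 in treated p53+/- lymphomas. Cenpk had the lowest, with 1.49 and 3.41 CPM per kb. The length was that of all annotated exons of a gene merged, 1868 bases for Cdc20 and 5231 for Cenpk. These ranks therefore depend on the annotation.

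**Figure D1:**
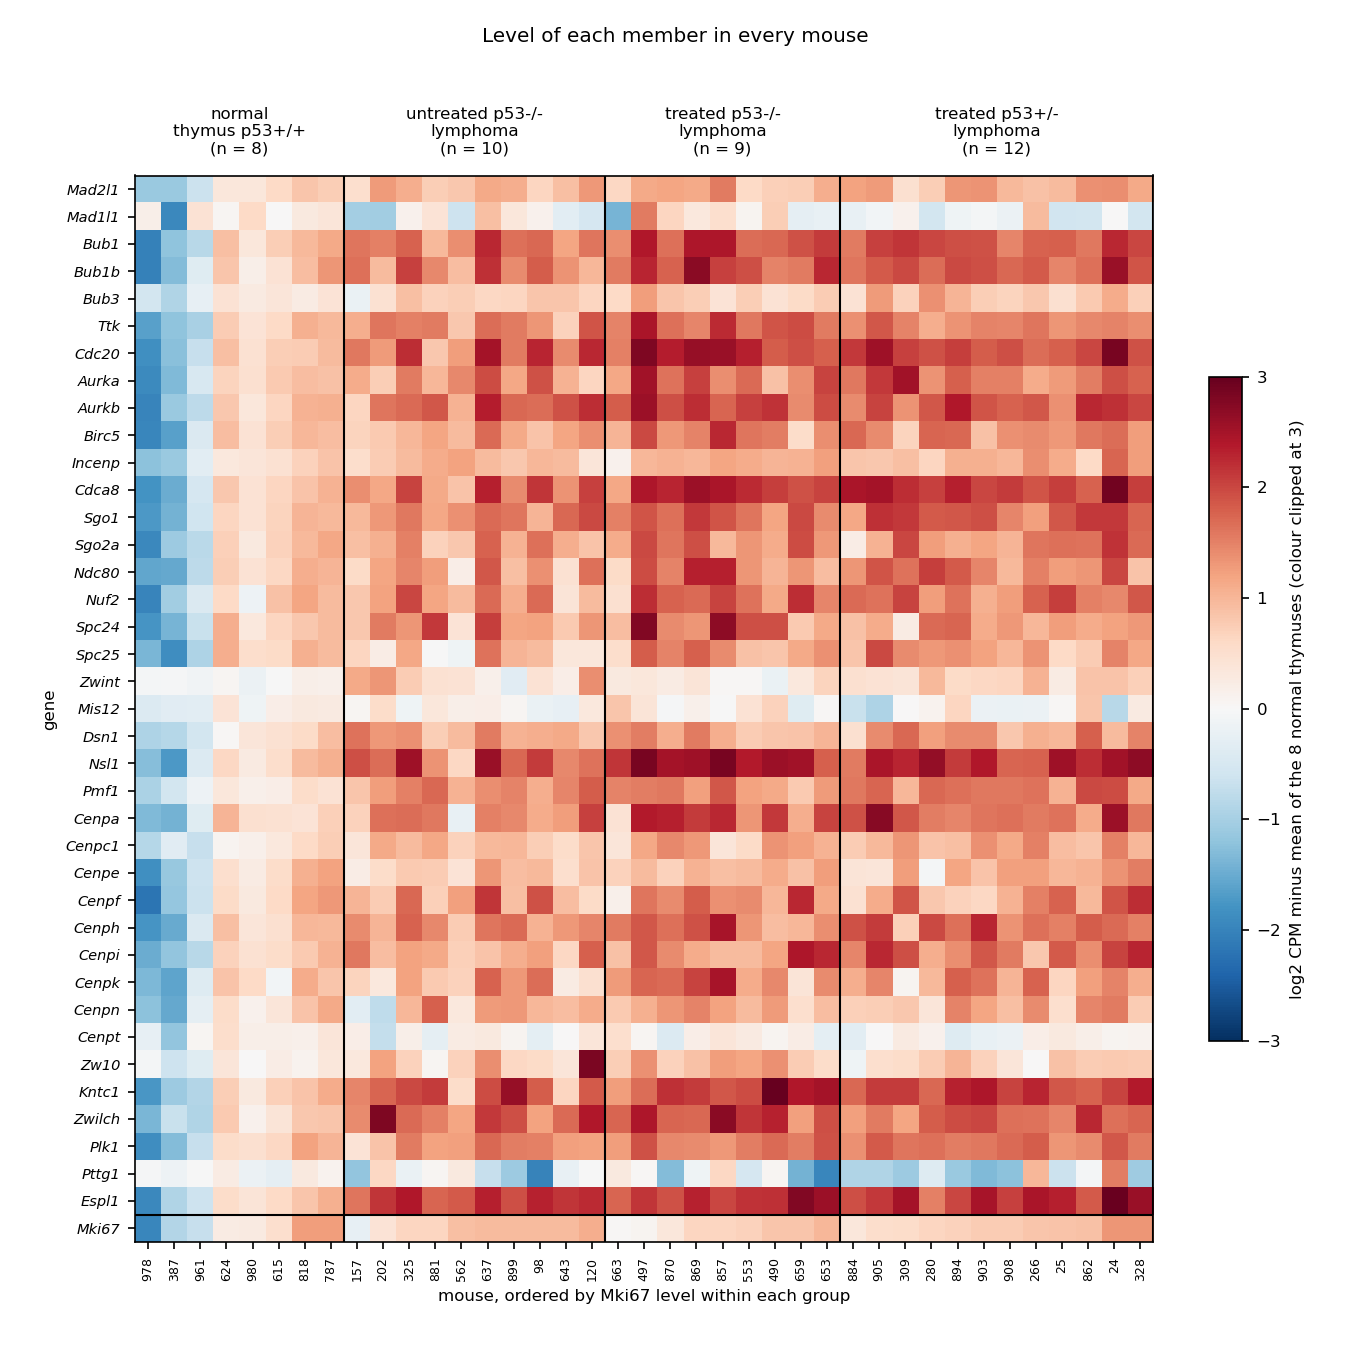
Level of each of the 38 genes and of Mki67 in every mouse, as log2 CPM minus the mean of the 8 normal thymuses (colour), with mice in columns by group and ordered by Mki67 within a group. Normal thymuses 978 and 387 are low for most genes, and the rows of Pttg1, Mad1l1, Cenpt and Mis12 do not follow the rise of the others in the lymphomas.

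The checkpoint signalling genes rose in 6 of 7 cases in each comparison, Mad1l1 being the exception, with median log2 fold changes of 1.03, 1.58 and 1.25. Cdc20 was at 3.94, 6.38 and 6.73 log2 CPM in normal thymus (lowest, median and highest mouse). It was at 6.60, 7.37 and 8.29 in untreated p53-/-, 7.31, 8.11 and 8.59 in treated p53-/-, and 7.46, 7.76 and 8.63 in treated p53+/- lymphomas. In 30 of 31 lymphomas Cdc20 lay above every normal thymus. The log2 fold changes of Cdc20 were 1.5 ± 0.30 (SE), 1.95 ± 0.30 and 1.81 ± 0.30, with edgeR adjusted p of 0.000112, 1.82e-06 and 4.65e-06. Bub1, the kinase that docks checkpoint proteins on the kinetochore, was at 2.81, 5.38 and 5.97 log2 CPM in normal thymus, with medians of 6.44, 6.75 and 6.76 in the lymphoma groups. Its log2 fold changes were 1.21 ± 0.27, 1.68 ± 0.28 and 1.59 ± 0.27, and 30 of 31 lymphomas lay above every normal thymus. Bub1b encodes BubR1, a part of the mitotic checkpoint complex. Its level was 4.25, 6.59 and 7.61 log2 CPM in normal thymus, its medians in the lymphoma groups were 7.72, 8.23 and 8.13, and it rose by 1.18 ± 0.28, 1.69 ± 0.29 and 1.57 ± 0.29. Ttk, the kinase at the top of the checkpoint, rose by 1.03 ± 0.25, 1.58 ± 0.26 and 1.25 ± 0.25 on the log2 scale. Mad2l1 (0.74 ± 0.21, 0.84 ± 0.21 and 0.97 ± 0.21) and Bub3 (0.57 ± 0.17, 0.64 ± 0.17 and 0.79 ± 0.17), both carried in the mitotic checkpoint complex, rose less in value, and their difference from the other members was not tested.

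Among the chromosomal passenger complex, the mitotic kinases and the cohesion protectors, 7, 8 and 8 of 8 rose, with medians of 0.99, 1.34 and 1.37 on the log2 scale. Aurkb, the kinase that destabilises wrong attachments, was at 3.16, 5.62 and 6.20 log2 CPM in normal thymus and at medians of 6.85, 7.09 and 7.01 in the lymphoma groups. Its log2 fold changes were 1.37 ± 0.28, 1.71 ± 0.29 and 1.64 ± 0.28, and 29 of 31 lymphomas lay above every normal thymus. Cdca8 encodes borealin, a targeting subunit of the complex. It was at 3.67, 6.01 and 6.51 log2 CPM in normal thymus, at medians of 6.87, 7.71 and 7.56 in the lymphoma groups, and it rose by 1.35 ± 0.28, 1.86 ± 0.29 and 1.92 ± 0.29. Sgo1, the shugoshin that shields centromeric cohesin, rose by 1.12 ± 0.26, 1.44 ± 0.26 and 1.60 ± 0.26 from a normal level of 2.73, 5.0 and 5.48 log2 CPM. Incenp, the scaffold of the complex, rose by 0.68 ± 0.21, 0.83 ± 0.21 and 0.91 ± 0.21. Birc5 (survivin) was called in the treated groups, at 1.20 ± 0.28 and 1.19 ± 0.27, and in untreated p53-/- lymphomas it had a log2 fold change of 0.67 ± 0.28 (edgeR adjusted p = 0.0514). Sgo2a and the kinases Aurka and Plk1 rose in all 3 comparisons, by 0.85 to 1.42 on the log2 scale.

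At the outer kinetochore, the 4 genes of the NDC80 complex, which as a whole binds microtubules, rose in 3, 4 and 4 cases. Ndc80, Nuf2 and Spc24 rose in all 3 comparisons, by 0.85 to 1.52 on the log2 scale. Spc25 had log2 fold changes of 0.35 ± 0.30, 0.96 ± 0.31 and 0.90 ± 0.31, and was called in the treated groups. Nsl1, a subunit of the MIS12 complex that joins the outer kinetochore to the centromere, had the largest mean log2 fold change of the 38. It was at 1.90, 4.02 and 4.68 log2 CPM in normal thymus. It was at 4.24, 5.32 and 6.20 in untreated p53-/-, 5.41, 6.13 and 6.48 in treated p53-/-, and 5.17, 5.96 and 6.31 in treated p53+/- lymphomas. In 30 of 31 lymphomas Nsl1 lay above every normal thymus, and it rose by 1.52 ± 0.28, 2.25 ± 0.29 and 2.09 ± 0.28, with edgeR adjusted p of 4.71e-05, 7.38e-08 and 1.67e-07. Its partner Pmf1 was at 3.94, 5.07 and 5.44 log2 CPM in normal thymus and at 5.68 to 6.87 in the lymphomas, so that the ranges did not overlap. Pmf1 rose by 1.28 ± 0.18, 1.29 ± 0.18 and 1.53 ± 0.18. Dsn1, another subunit, rose by 1.02 ± 0.22, 1.02 ± 0.22 and 1.16 ± 0.21. Mis12, the subunit that names the complex, differed by 0.01 ± 0.20, 0.25 ± 0.19 and 0.03 ± 0.19 on the log2 scale (edgeR adjusted p of 0.985, 0.275 and 0.911). Its lymphoma values of 4.61 to 6.38 log2 CPM spanned the normal range of 5.13 to 5.96. The MIS12 complex genes therefore had values from 0.01 to 2.25 within 1 complex.

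The RZZ complex, which brings dynein and Mad1 to unattached kinetochores, rose in 3 of 3 genes in each comparison. Zwilch was at 2.27, 3.90 and 4.48 log2 CPM in normal thymus and at 4.83 to 6.44 in the 31 lymphomas, without overlap. It rose by 1.55 ± 0.26, 1.88 ± 0.26 and 1.65 ± 0.25, with edgeR adjusted p of 1.17e-05, 2.32e-07 and 1.58e-06. Kntc1 (ROD) was at 2.46, 4.72 and 5.31 log2 CPM in normal thymus, at medians of 6.03, 6.31 and 6.27 in the lymphoma groups, and rose by 1.51 ± 0.30, 1.89 ± 0.31 and 1.76 ± 0.30. Zw10, which also works in membrane traffic between divisions, rose by 0.98 ± 0.26, 0.98 ± 0.26 and 0.66 ± 0.25. One untreated p53-/- lymphoma, mouse 120, reached 8.38 log2 CPM of Zw10 against 6.95 in the next mouse of its group.

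The 9 centromere genes rose in 5, 8 and 8 cases. Cenpa, the histone H3 variant that marks the centromere, was at 4.41, 6.25 and 6.85 log2 CPM in normal thymus and at medians of 7.30, 7.91 and 7.43 in the lymphoma groups. It rose by 1.15 ± 0.31, 1.68 ± 0.32 and 1.62 ± 0.31, and 28 of 31 lymphomas lay above every normal thymus. Cenpc1, which binds the Cenpa nucleosome, Cenph and Cenpi of the inner kinetochore network, and Cenpf rose in all 3 comparisons, by 0.79 to 1.54 on the log2 scale. Cenpe, the kinetochore motor, had log2 fold changes of 0.39 ± 0.26, 0.68 ± 0.26 and 0.77 ± 0.25, and 7 of 31 lymphomas lay above every normal thymus. Cenpk and Cenpn were called in the treated groups, by 0.81 to 1.34, and had 0.72 ± 0.31 and 0.68 ± 0.30 in untreated p53-/- lymphomas. Cenpt, which ties centromeric DNA to the NDC80 complex, was at 3.44, 4.79 and 5.16 log2 CPM in normal thymus and at 3.92 to 5.13 in the lymphomas. No lymphoma lay above the highest normal thymus, and the log2 fold changes were -0.14 ± 0.17, 0.07 ± 0.16 and 0.02 ± 0.16 (edgeR adjusted p of 0.528, 0.754 and 0.928).

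**Figure D2:**
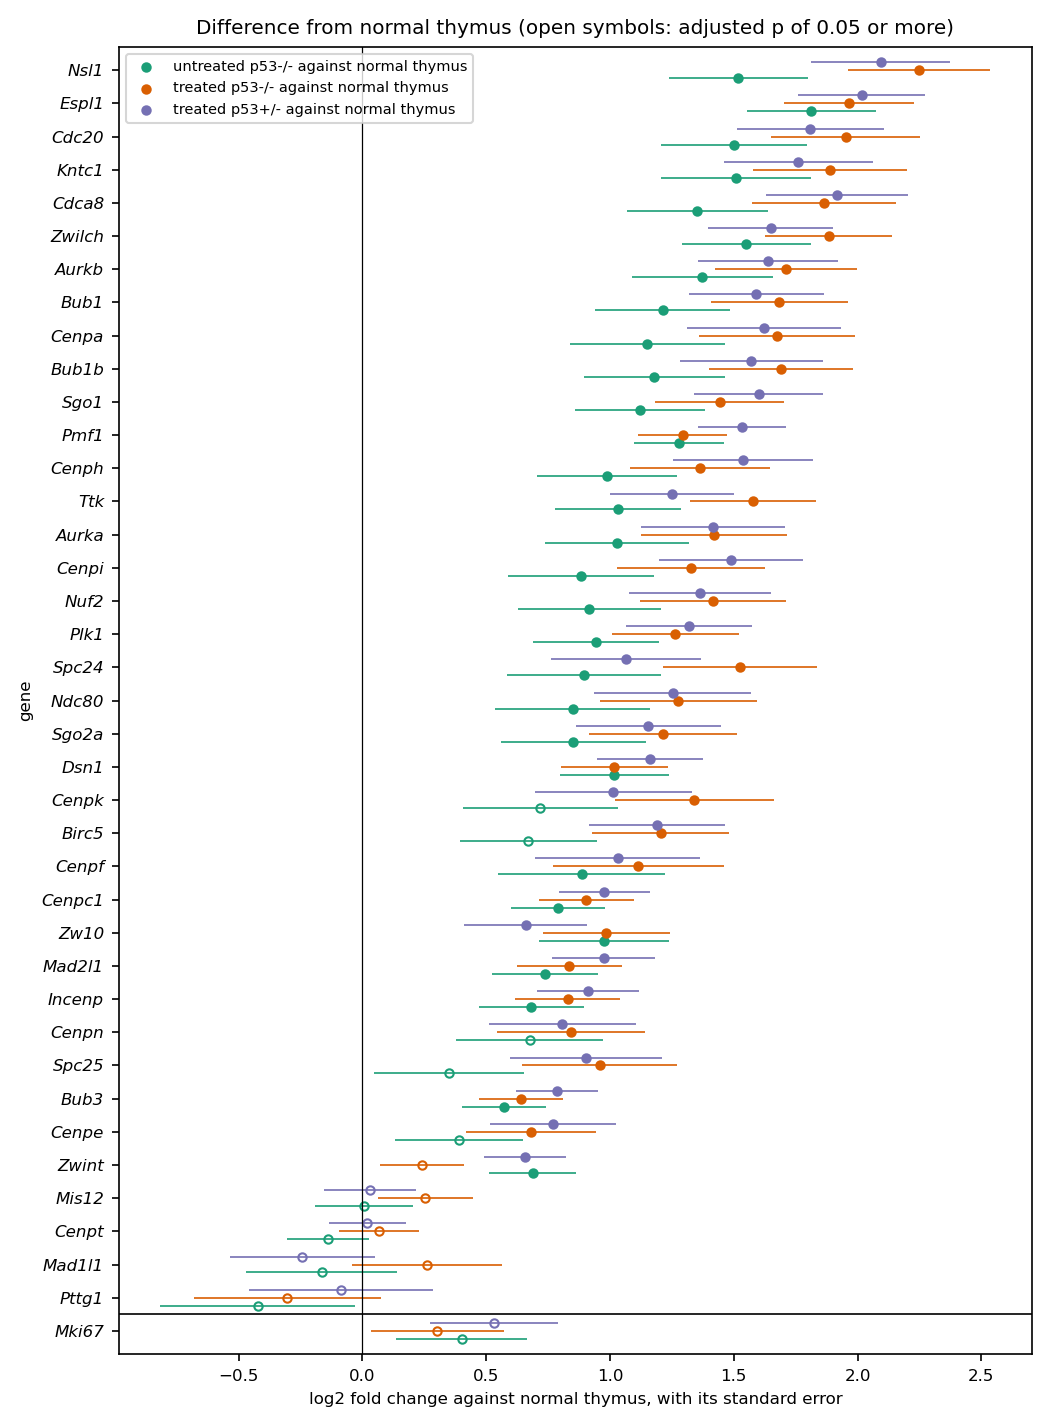
Log2 fold change of each gene against normal thymus (horizontal axis) with its standard error, 1 point per lymphoma group, filled where the edgeR adjusted p was under 0.05. Nsl1, Espl1 and Cdc20 are at the top, Pttg1, Mad1l1, Cenpt and Mis12 lie around 0, and Mki67 is in the bottom row with 3 open points.

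Separase rose in all 3 comparisons and its inhibitor securin was called in none. Espl1, the protease that cuts cohesin at anaphase, was at 2.98, 5.36 and 5.98 log2 CPM in normal thymus. It was at 6.5, 7.04 and 7.31 in untreated p53-/-, 6.66, 7.08 and 7.67 in treated p53-/-, and 6.42, 7.13 and 7.87 in treated p53+/- lymphomas, and all 31 lay above every normal thymus. Its log2 fold changes were 1.81 ± 0.26, 1.97 ± 0.26 and 2.02 ± 0.26, with edgeR adjusted p of 9.29e-07, 1.53e-07 and 5.71e-08. Pttg1 was at 4.78, 5.03 and 5.35 log2 CPM in normal thymus, a narrow range. It was at 3.04, 4.84 and 5.68 in untreated p53-/-, 3.10, 4.93 and 5.68 in treated p53-/-, and 3.73, 4.14 and 6.58 in treated p53+/- lymphomas. Of the 31 lymphomas 17 lay below every normal thymus (4, 4 and 9 by group), and 4 lay above (1, 1 and 2), so the lymphomas spread to both sides. The log2 fold changes of Pttg1 were -0.42 ± 0.39, -0.30 ± 0.38 and -0.09 ± 0.37, with edgeR adjusted p of 0.407, 0.517 and 0.863. Mad1l1, which recruits Mad2 to kinetochores, was at 4.37, 6.53 and 6.88 log2 CPM in normal thymus, where the lowest value was that of mouse 387 and the next was 6.30. In lymphomas it was at 4.90 to 7.84, 5 of 31 lay above the normal range, and the log2 fold changes were -0.17 ± 0.31, 0.26 ± 0.30 and -0.24 ± 0.29 (edgeR adjusted p of 0.695, 0.487 and 0.503).

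Exons of Cdc20, Cdca8, Mis12, Cenpk, Cenpt, Zwilch, Sgo2a, Plk1 and Mad1l1 overlap a gene on the opposite strand, and whether counting used the strand is not given in the sources used here. The share of their counts that belongs to the partner (for Cdc20 Elovl1, for Cenpk Ppwd1) was not tested. Genes of some chromosomes were higher in lymphoma as a whole. The median log2 fold change over all genes of chromosome 5, which carries Mad1l1, Cenpa, Cenpc1 and Kntc1, was 0.44 to 0.49 over the 3 comparisons. It was 0.29 to 0.42 for chromosome 15 (Espl1) and 0.24 to 0.38 for chromosome 4 (Cdc20 and Cdca8). The part of these shifts in the single genes was not tested.

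Mki67 was not called in any of the 3 comparisons. It was at 6.78, 9.0 and 10 log2 CPM in normal thymus, 8.49, 9.66 and 9.83 in untreated p53-/-, 8.77, 9.39 and 9.74 in treated p53-/-, and 9.07, 9.5 and 10.06 in treated p53+/- lymphomas. Only 2 of 31 lymphomas lay above every normal thymus. The log2 fold changes of Mki67 were 0.40 ± 0.26, 0.30 ± 0.27 and 0.53 ± 0.26, with edgeR adjusted p of 0.228, 0.351 and 0.0835. In 31 of the 38 genes the log2 fold change was larger in value than that of Mki67 in all 3 comparisons. The share of all genes for which this held is not given here, so the count stands without a background.

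With the Mki67 level of each mouse as a covariate, so that lymphomas and normal thymuses were compared at equal Mki67, 25, 33 and 28 of 38 members were called higher in the 3 groups, and 0 lower. Of all 17840 genes, 32.9%, 46% and 40.2% were called in either direction in the same comparisons. The members' median log2 differences at equal Mki67 were 0.69, 1.15 and 0.95, beside 0.11, -0.03 and 0.03 for all genes. In all 3 comparisons 23 members were called, and the matching number of all genes is not given here. The other proliferation genes Top2a, Ccna2, Tpx2 and Pcna lay as high, with medians of 0.68, 1.07 and 0.86 and 2, 4 and 4 of 4 called, so a difference at equal Mki67 is not particular to the kinetochore and checkpoint genes. These counts depended on the reference gene. With Top2a (DNA topoisomerase II alpha, another gene of dividing cells) in place of Mki67, 5, 14 and 12 members were called and their medians were 0.26, 0.50 and 0.44, beside 22.4%, 27.6% and 27.4% of all genes called in either direction and all-gene medians of 0.12, 0.01 and 0.05. With the mean of Mki67, Top2a, Ccna2 and Tpx2, 12, 19 and 19 were called, beside 25.8%, 32.2% and 29.8% of all genes. Above every normal thymus lay 28 of 31 lymphomas for Top2a, 28 for Pcna, 22 for Tpx2, 14 for Ccna2 and 2 for Mki67. The part of this in the lower counts was not tested. With Mki67 as an offset, which fixes the slope at 1, 12, 25 and 21 members were called higher and 4, 1 and 4 lower, while 53.2%, 53.1% and 60.9% of all genes were called in either direction and their median was -1.03, -0.97 and -1.13. Without mouse 881 the counts were 25, 33 and 28. In untreated p53-/- lymphomas, 16 members, beside 22.9% of all genes, were called without normal thymus 818. Over tumours with a single biopsy 14 members were called, beside 27.5% of all genes.

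The 12 genes that stood highest at equal Mki67, by number of calls and then mean difference, were Nsl1, Espl1, Cdc20, Zwilch, Cdca8, Kntc1, Bub1, Aurkb, Bub1b, Cenpa, Pmf1 and Sgo1. Cdc20, Nsl1, Espl1 and Zwilch were called higher in every one of 72 fits (3 comparisons, each as described and under 23 alternatives, other reference genes included). No count of all genes under that rule is given here. The log2 differences of Espl1 at equal Mki67 were 1.5 ± 0.16, 1.73 ± 0.15 and 1.58 ± 0.15, with edgeR adjusted p of 7e-09, 1e-10 and 1.08e-09. With Top2a as the reference they were 1.08, 1.08 and 1.12. The gap between Espl1 and Mki67 was -4.25, -3.78 and -3.54 log2 units in normal thymus (lowest, median and highest mouse). It lay between -2.96 and -1.77 in the 31 lymphomas, without overlap. The log2 differences of Nsl1 at equal Mki67 were 1.32 ± 0.25, 2.12 ± 0.25 and 1.8 ± 0.25 and with Top2a as the reference 0.73, 1.40 and 1.22. Those of Cdc20 were 1.24 ± 0.26, 1.82 ± 0.25 and 1.48 ± 0.26, and with Top2a 0.72, 1.1 and 0.93. Those of Zwilch were 1.33 ± 0.24, 1.72 ± 0.23 and 1.35 ± 0.23, and with Top2a 0.95, 1.22 and 0.95. Pttg1, Mad1l1, Cenpt and Mis12 were not called at equal Mki67 in any of the 3 comparisons, and Pttg1 had -0.55 ± 0.43, -0.39 ± 0.40 and -0.24 ± 0.43 (edgeR adjusted p of 0.35, 0.438 and 0.683). Pttg1 was called lower in all 3 comparisons with Mki67 as an offset, at -1.54, -1.16 and -1.26, beside the all-gene medians of that fit. Mad1l1, Mis12 and Cenpt were also called lower with the offset, each in untreated p53-/- and in treated p53+/- lymphomas.

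**Figure D3:**
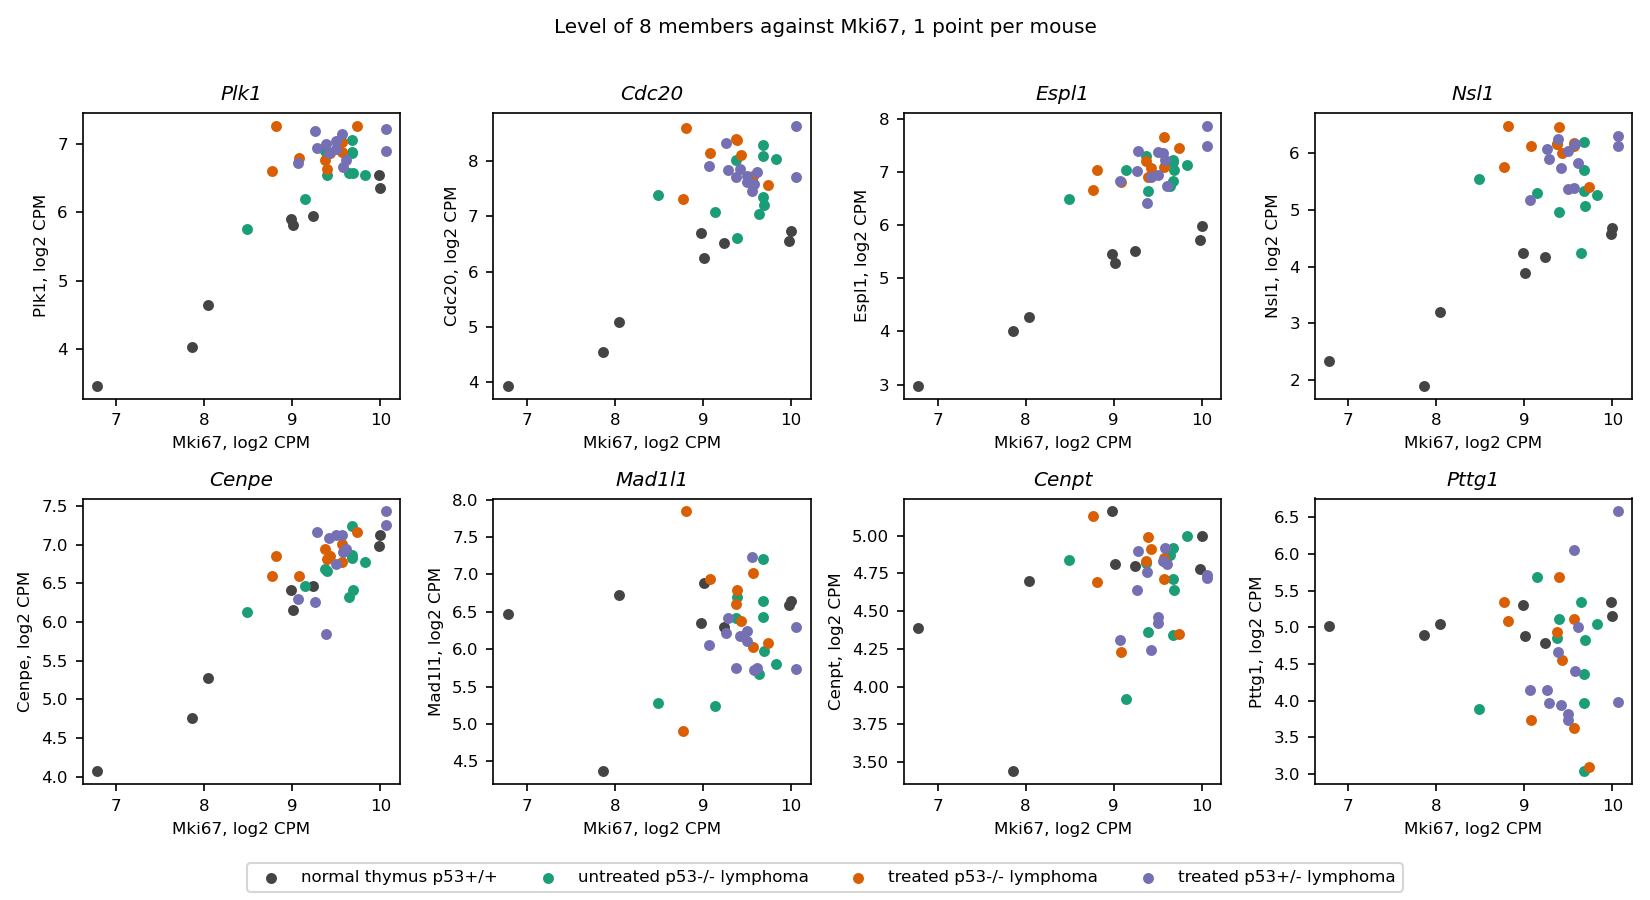
Level of 8 members (vertical axes, log2 CPM) against Mki67 (horizontal axes, log2 CPM), 1 point per mouse, coloured by group. All lymphoma points of Espl1 lie higher than every normal thymus, as do 30 of 31 for Cdc20 and for Nsl1. Those of Pttg1 scatter from 3.04 to 6.58 over a narrow range of Mki67.

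That comparison used 1 Mki67 coefficient for all 39 mice, and the slopes were also fitted in each tissue alone. Among the 8 normal thymuses, 22 of 38 members were called higher with higher Mki67, beside 1.06% of 14122 genes tested, and the median slope was 0.91 log2 units per log2 unit of Mki67. Cenpf (1.08 ± 0.09), Cenpe (0.95 ± 0.08), Espl1 (0.92 ± 0.10) and Plk1 (0.99 ± 0.11) had the smallest adjusted p, of 0.0118, 0.0118, 0.0155 and 0.0166 by edgeR. The call count rested on single mice: it was 0 without any one of mice 787, 961, 978, 980 and 615, 3 without mouse 818, and at most 29. The median slope stayed between 0.82 and 0.96 in these fits with 1 mouse left out. Pttg1 (0.03), Zwint (0.04), Mad1l1 (0.12), Zw10 (0.16), Cenpt (0.23) and Mis12 (0.23) had the smallest slopes and were not called. The lowest Mki67 levels were 6.78 log2 CPM in mouse 978 and 7.86 in mouse 387, and the highest was 10 in mouse 787.

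Among the 31 lymphomas, 0 of 38 members were called higher with higher Mki67, beside 0% of 16386 genes. At an unadjusted p under 0.05 there were 7 members and 1300 genes, and DESeq2 called 0 members, as did edgeR without mouse 881. The median slope was 0.17, from -0.31 for Dsn1 to 0.67 for Cenpf. Cenpe (0.63 ± 0.17) and Espl1 (0.58 ± 0.16) came closest, each with an edgeR adjusted p of 0.318. In 36 of 38 members the slope was smaller in lymphomas than in normal thymus, Pttg1 and Zw10 being the exceptions, as it was in 4 of 4 other proliferation genes and in 52.3% of 17840 genes. The median difference in slope was 0.60 for the members, 0.75 for the proliferation genes and 0.02 for all genes. The difference in slope, tested as an interaction, was called in 0 of 38 members and was called higher in 0% of 17840 genes, with 21 members and 1101 genes at an unadjusted p under 0.05. DESeq2 was not run on it, and without mouse 881 edgeR also called 0 members. Ttk (0.91 ± 0.22) and Dsn1 (0.91 ± 0.21) came closest, each with an edgeR adjusted p of 0.203.

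**Figure D4:**
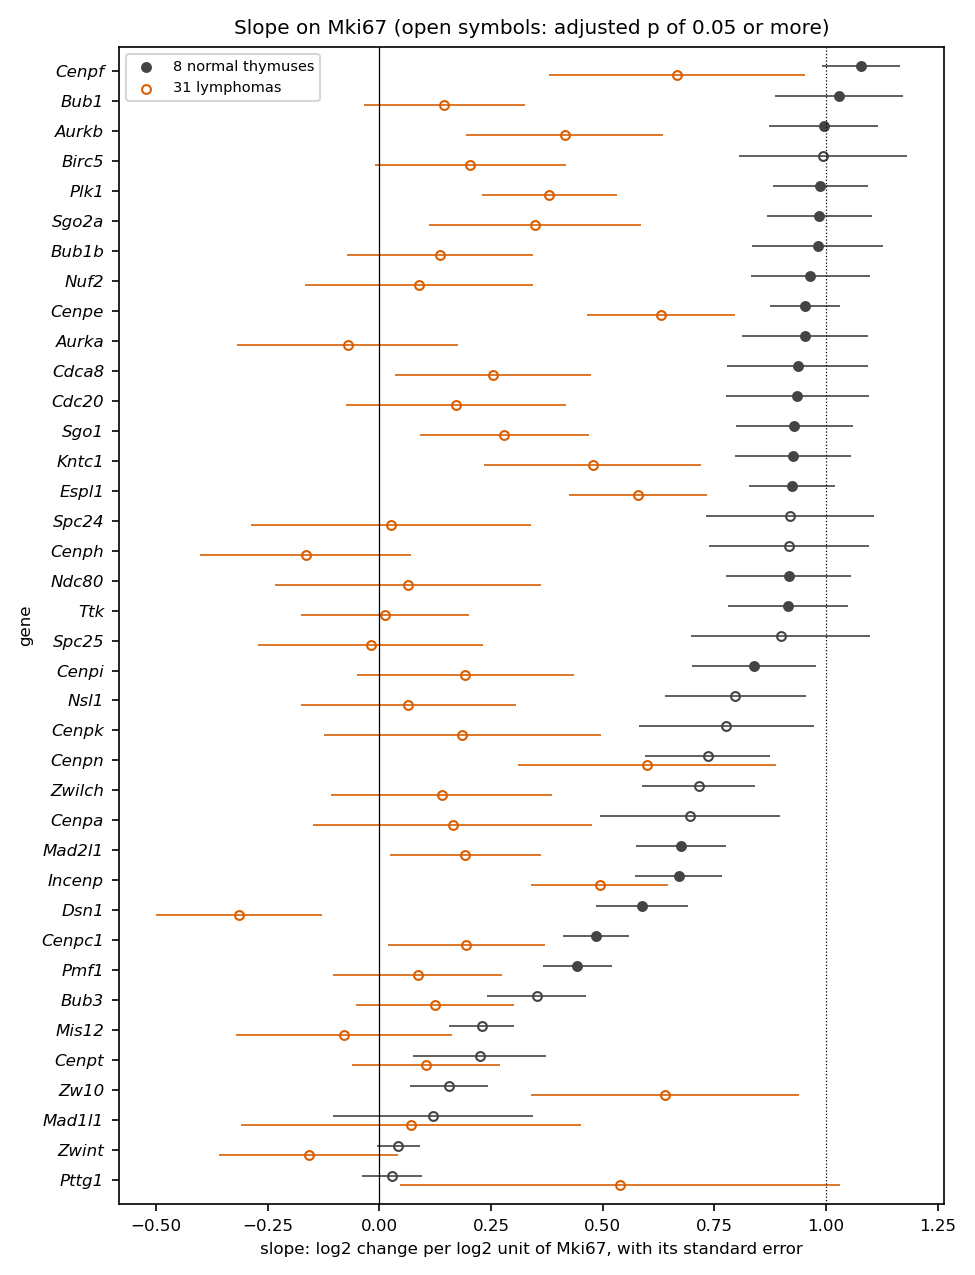
Slope of each member on Mki67 (horizontal axis, log2 units per log2 unit of Mki67) with its standard error in the 8 normal thymuses and the 31 lymphomas, filled where the edgeR adjusted p was under 0.05. In normal thymus 21 slopes are at least 0.8, and in lymphomas 0 are, with no share of all genes counted. The difference in slope was called in 0 of 38 members. Mki67 covered 6.78 to 10 log2 CPM in normal thymus and 8.49 to 10.06 in lymphomas.

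The 3 lymphoma groups were compared with each other to ask whether doxycycline treatment or the p53 genotype went with different levels of these genes. By edgeR 0 of 38 members were called in any of the 3 comparisons, and the background was 0%, 0% and 0% of 16387 genes. DESeq2 also called 0 members in each, and 0 were called without mouse 881. In treated against untreated p53-/- lymphomas, 10 members and 1915 genes had an unadjusted p under 0.05. The corresponding numbers were 2 and 866 for treated p53+/- against treated p53-/-, and 5 and 1039 for treated p53+/- against untreated p53-/- lymphomas. The members' median log2 differences were 0.26, -0.08 and 0.17, beside -0.06, 0.03 and -0.04 for all genes. Nsl1 came closest for treated against untreated p53-/- lymphomas, with 0.66 ± 0.21 (edgeR adjusted p = 0.283), followed by Ttk with 0.47 ± 0.16 (adjusted p = 0.29). In that comparison 34 of 38 members had a positive difference, none of them called, beside 43.4% of all genes, and Zwint had the lowest value, -0.48 ± 0.20. The numbers of positive differences in the other 2 comparisons, in the order given, were 15 and 33 of 38, beside 53.9% and 45% of all genes. The groups also differed in sex, with 9 of 10, 4 of 9 and 3 of 12 mice labelled male, and sex was a covariate of the fit.

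Weak kinetochores and a weak checkpoint are known to go with gain and loss of chromosomes, so the members were also set against chromosome imbalance. Imbalance was the standard deviation, over 19 autosomes, of the median log2 ratio to normal thymus of each autosome's genes, which measures expression and is no count of DNA copies. Among the 31 lymphomas 0 of 38 members were called by edgeR, beside 0.104% of 16387 genes. At an unadjusted p under 0.05 there were 7 members and 2138 genes, and DESeq2 was not run on it. Without mouse 881 edgeR also called 0 members. Cenpa came closest, with 0.88 ± 0.20 log2 units per 0.1 of imbalance (adjusted p = 0.0727), and Mki67 had -0.03 ± 0.15. Cenpa lies on chromosome 5, one of the chromosomes that enter the measure, so the gene and the measure are not independent.

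In 13 tumours that were biopsied more than once (54 libraries), the spread of each member within a tumour was set beside that between tumours. The standard deviation within a tumour was 0.16 to 0.39 log2 units over the 38 genes (median 0.25), and that between tumour means was 0.18 to 0.67 (median 0.35). It was smaller within than between tumours for 33 of 38 genes, a share near the 78.5% of 17840 genes; Mad2l1, Incenp, Nuf2, Pmf1 and Cenpe were the others. For the difference from Mki67 in the same library it was smaller within tumours for 12 of 38, beside 56.4% of those genes, with medians of 0.43 within and 0.37 between. Pttg1 had the widest spread between tumours, 0.67 against 0.26 within. The 4 biopsies of mouse 202 were at 5.49 to 5.76 log2 CPM of Pttg1, and the 4 biopsies of mouse 903 at 3.54 to 3.92 without overlap. Those of mouse 899 covered more, from 3.35 to 4.39. Cdc20 was at 6.96 to 7.03 in the 4 biopsies of mouse 202 and at 8.29 to 8.36 in those of mouse 905. These were its narrowest ranges, and its widest was 7.67 to 8.62 in mouse 869. Mki67 differed the other way, with 0.38 within and 0.23 between tumours. Its 4 biopsies covered 1.41 log2 units in mouse 905, its widest range, and 0.21 in mouse 202, its narrowest. Biopsies of one tumour are not replicates of a group, and libraries of mouse 857 were shallow, down to 1030429 counts.

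**Figure D5:**
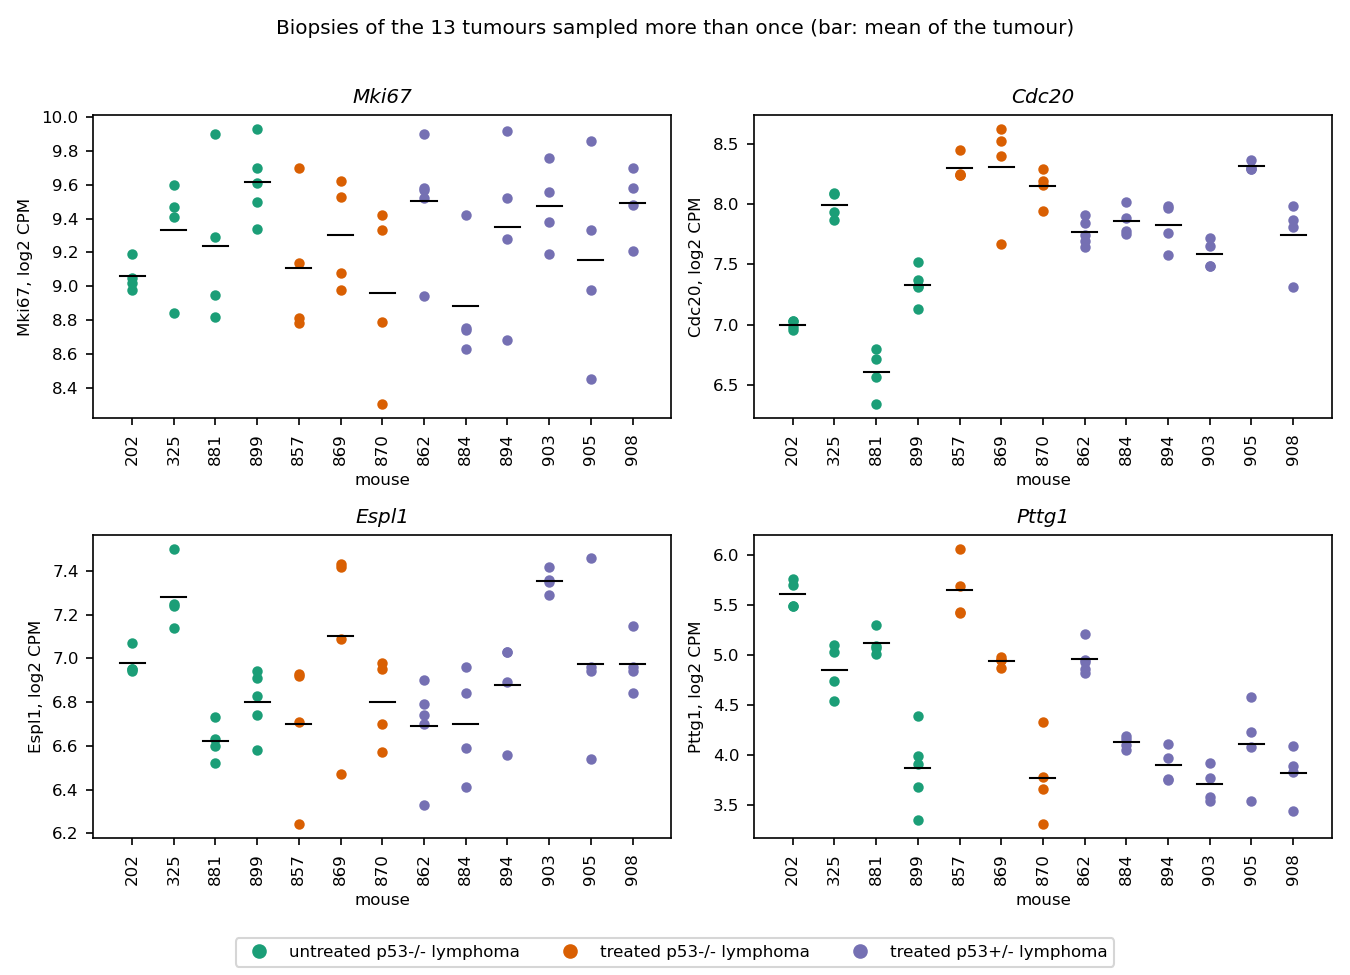
Level of Mki67, Cdc20, Espl1 and Pttg1 (vertical axes, log2 CPM) in every biopsy of the 13 tumours sampled more than once, by mouse and coloured by group, with a bar at each tumour's mean. The points of Pttg1 cluster by tumour (0.26 within, 0.67 between), and those of Mki67 spread within tumours (0.38 within, 0.23 between).

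Other genes of the same machinery came from 4 further lists. Beside the counts of each list, 23.2%, 25.4% and 25.6% of all genes tested rose in the 3 lymphoma groups. Of 22 other kinetochore and centromere genes, 17, 20 and 20 rose in these groups and 0 fell. Cenpw, a histone-fold protein that pairs with Cenpt, rose most, by 2.13 ± 0.34, 2.60 ± 0.34 and 2.51 ± 0.34 on the log2 scale, followed by Ska3 of the microtubule-tracking SKA complex (1.40 ± 0.31, 2.30 ± 0.31 and 2.26 ± 0.31). Of 11 other checkpoint genes, 8, 7 and 8 rose, and 0, 0 and 1 fell (Dync1h1, the dynein heavy chain, at -0.46 ± 0.18 in treated p53+/- lymphomas). Trip13, the ATPase that takes Mad2 out of the checkpoint complex, rose by 1.70 ± 0.23, 2.03 ± 0.23 and 2.01 ± 0.23. Usp44, a deubiquitinase that acts on Cdc20, rose by 2.43 ± 0.61, 2.00 ± 0.59 and 2.59 ± 0.59. Of 18 genes of the anaphase-promoting complex, the target of the checkpoint, 10, 12 and 13 rose and 0 fell; the subunits Anapc5 (1.11 ± 0.20, 1.5 ± 0.20 and 1.46 ± 0.20) and Anapc7 (1.1 ± 0.18, 1.32 ± 0.18 and 1.24 ± 0.17) had the largest mean among those called in all 3. Of 13 cohesin genes, 7, 8 and 9 rose and 0, 1 and 1 fell (Esco1 in the treated p53-/- group and Mau2 in the treated p53+/- group). Dync1h1, Esco1 and Mau2 are named after their values were seen. Esco2, the acetyltransferase that locks cohesin on DNA in S phase, rose by 0.93 ± 0.35, 1.64 ± 0.36 and 1.72 ± 0.35, and Pds5a, a cohesin regulator, by 1.37 ± 0.21, 1.32 ± 0.21 and 1.20 ± 0.20. The median log2 fold changes were 0.85, 1.18 and 1.16 for the other kinetochore genes and 0.73, 0.53 and 0.45 for the other checkpoint genes. They were 0.46, 0.60 and 0.60 for the anaphase-promoting complex and 0.47, 0.50 and 0.58 for cohesin, beside 0.91, 1.29 and 1.22 for the 38 members. Without mouse 881 the counts in these lists were as given, except that 8, 8 and 10 cohesin genes rose.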

How the data were processed

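The authors deposited RSEM expected counts (estimated counts) for 51826 genes in 81 libraries, not scaled between libraries. Per the submitters' processing notes the tools were CASAVA 1.8, fastp, STAR 2.7.2b and RSEM 1.1.17 and the build mm10; their settings, the annotation and the use of strand are not given in the sources used here. Gene positions came from GENCODE M21 (GRCm38), which held 99.63% of the IDs; Sgo1 and Sgo2a are listed under the older symbols Sgol1 and Sgol2a and were matched by ID. Biopsies of a mouse were summed and rounded to whole counts. Groups followed the labels. Tests used edgeR 4.0.16 in R 4.3.3 (TMM, filterByExpr, robust quasi-likelihood, labelled sex as covariate), with Benjamini-Hochberg adjustment over all genes tested and a threshold of 0.05. DESeq2 1.42.0 was an alternative. Log2 CPM were computed with a prior count of 2 and TMM scaling. The code was tested on simulated data. The members, gene lists and tests were chosen with earlier results of these data known. Named genes were those called at equal Mki67 (at most 12), the 3 largest and 3 smallest mean changes, members not called on Mki67 among lymphomas, and 2 genes per further list. As no member was called on Mki67 there, the rule took in all 38, and several are given by range or count alone. Alternatives were other scaling, no filter, other references for proliferation, no sex covariate, the largest or only biopsy, and left-out mice.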

Additional observations from a re-analysis of the deposited data

Results flagged for a closer look

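Within 117 groups of mice (each of the 38 genes and Mki67 in groups of 8, 9 and 10), 8 values lay far from the rest of their group by Dixon's test. That is 6.8%, and chance flags about 1 in 20. In log2 CPM, the normal thymus of mouse 387 was lowest for Mad1l1 (4.37, next 6.30) and for Cenpt (3.44, next 4.39); this mouse also had the highest fat and B-lineage sums of the normal thymuses. The untreated p53-/- lymphoma of mouse 157 was lowest in its group for Bub3 (6.81, next 7.47) and for Mki67 (8.49, next 9.14). Mouse 120 of the same group was highest for Zw10 (8.38, next 6.95). Among treated p53-/- lymphomas, mouse 663 was lowest for Incenp (6.72, next 7.58) and Cdca8 (6.64, next 7.38), and mouse 497 was highest for Bub3 (8.27, next 7.85).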

How the results depend on the processing

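Against normal thymus, 19 of 38 members were called higher in all 63 fits that asked for the adjusted p alone, and the counts there stayed within 1.5 times of the reported ones. The share of all genes called higher in every one of these fits is not given here. A further alternative, which also required a log2 fold change of at least 1, left 15 in untreated p53-/- lymphomas. At equal Mki67 the counts moved further. For untreated p53-/- lymphomas 14 members, beside 27.5% of all genes, were called over single-biopsy tumours, 5 with Top2a as reference, 12 with the mean of 4 genes and 16 with Mki67 as an offset (12 higher and 4 lower); for treated p53-/- 14 with Top2a and 19 with the mean of 4 genes; for treated p53+/- 12 with Top2a. The cause was not tested. With 1 normal thymus left out, the counts were 26 to 32, 32 to 33 and 32 to 34 against normal thymus, 16 to 26, 30 to 33 and 27 to 30 at equal Mki67, and 0 to 29 for slopes among normal thymuses. Without scaling factors the median of all genes moved from 0.08 to -0.05 in untreated p53-/- and from 0.00 to -0.12 in treated p53+/- lymphomas. The members called under that setting were 25, 32 and 32, and the counts of all genes called there are not given here.

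At equal Mki67, 6 called values of members changed sign, and none of them was called under that alternative. Cenpe in treated p53-/- lymphomas went from 0.45 to -0.25 with Top2a and -0.18 with the mean of 4 genes. With Mki67 as an offset, Zwint went from 0.69 to -0.31 (untreated p53-/-) and from 0.65 to -0.44 (treated p53+/-), Zw10 from 0.74 to -0.12 (untreated p53-/-) and Bub3 from 0.59 to -0.06 (treated p53+/-). That fit lowered all genes, with all-gene medians of -1.03 (untreated p53-/-) and -1.13 (treated p53+/-), below these values. Against normal thymus 0 called values changed sign. The other changes below, among the genes named for their change, were in values that were not called. Cenpt became 0 (treated p53-/-) and -0.12 (treated p53+/-) without scaling factors, -0.05 without the sex covariate and -0.03 without mouse 978 (both treated p53+/-). Pttg1 in treated p53+/- lymphomas became 0.36 over single-biopsy tumours, 0.08 without the 3 mice with discordant sex genes, and lay between -0.11 and 0.02 (without mouse 387) with 1 normal thymus left out. At equal Mki67, Pttg1 became 0.26 and Cenpt 0.04 (treated p53+/-) and 0 (treated p53-/-) over single-biopsy tumours. Cenpt in treated p53-/- lymphomas became 0.07 without the 3 discordant mice, 0.05 without mouse 857, 0.01, 0.01, 0 and 0.03 without mice 961, 980, 615 and 624 (from -0.11 to 0.03 with 1 normal thymus left out), and 0.01 with the p53+/- normal thymus. Mad1l1 there became -0.15 with Top2a, -0.14 with the mean of 4 genes and -0.53 with the offset. The alternatives without mice 857 and 881, the slopes in normal thymus and the spread of all genes among biopsies were added after seeing the data. No paired analysis was possible because the numbers in the labels name mice and biopsies, and no mouse is in 2 groups. The shallowest library, of 1030429 counts, limits single biopsies and not the summed mice.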
